A study of Mus musculus with 31 samples.

Results

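The genes described here encode the proteasome. They are the genes on the array whose symbol starts with Psma, Psmb, Psmc, Psmd, Psme, Psmf or Psmg followed by a number, each read through its brightest probe. There were 48 such genes among the 34797 genes with a probe. The immunoproteasome subunits Psmb8, Psmb9 and Psmb10 are given apart from the other 45. Of the 48, 46 were tested among 26901 tested genes, and each of the 46 was well above background on all 31 arrays. The remaining pair, Psma8, an α subunit of the testis, and Psmb11, the catalytic subunit of the thymus proteasome, was well above background on 0 of 31 arrays. The 48 genes lie on 16 chromosomes.

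Uterine RNA was profiled on 31 one-colour arrays, 1 per sample, in 8 groups. All mice were ovariectomised at the age of 4 weeks, kept for 3 weeks on normal chow and studied 6 h after an injection of castor oil under the skin, with 17β-estradiol (E2) at 8 µg/kg or without it (placebo, PLB). They belonged to the AF2 line on C57BL6/J or to the MISS line on C57BL6/N, and within each line were labelled KO or WT. The groups were AF2 KO E2 (3 arrays), AF2 KO placebo, AF2 WT E2, AF2 WT placebo, MISS KO E2, MISS KO placebo, MISS WT E2 and MISS WT placebo (4 arrays each). From knowledge outside the labels, KO here stands for a mutant estrogen receptor α (gene Esr1) and not for its loss. The AF2 mutant lacks activation function 2, through which the hormone-bound receptor recruits coactivators, and the MISS mutant receptor is missing from the cell membrane while its nuclear form remains. Whole uteri were used, so the cell types were not separated, and because line and substrain go together, their effects cannot be told apart. The titles give each sample a number of its own, and p-values measure the spread between these samples.

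Levels are log2 signal intensities relative to the 75th percentile of their array, which was 535.8 to 1042 intensity units. Between 62.7 and 77.6% of probes were well above background per array, no spot was saturated, and the number of arrays limits the precision. Markers of the uterus were present: 13 of 13 epithelial, 12 of 12 stromal, 10 of 10 smooth muscle and 10 of 10 endothelial genes were well above background on all arrays. Esr1 lay at 2.80 to 3.04 in AF2 KO E2 and 2.88 to 3.06 in AF2 KO placebo arrays, and at 3.03 to 3.65 in AF2 WT E2 and 3.24 to 3.54 in AF2 WT placebo arrays. In the MISS line, Esr1 lay at 2.84 to 3.41 in KO E2 and 3.19 to 3.38 in KO placebo arrays, and at 2.72 to 3.00 in WT E2 and 3.07 to 3.32 in WT placebo arrays. Whether the Esr1 probe covers the altered part of either receptor was not tested, so these levels do not check the labels. In such bulk samples, fewer cells of a type and less RNA per cell cannot be told apart.

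The proteasome is the protease that degrades ubiquitin-tagged proteins in the cytosol and the nucleus. Its barrel-shaped core particle stacks rings of α subunits, which gate the entry, on rings of β subunits, which hold the proteolytic sites. The regulatory particle caps the core, binds and deubiquitinates substrates and unfolds them with a ring of ATPases, and core and cap together make the 26S proteasome. Under interferon γ, and in immune cells, the standard catalytic β subunits are replaced by immunoproteasome subunits, which favour peptides that fit MHC class I molecules. In the uterus of an ovariectomised mouse, estrogen is known to start water uptake, protein synthesis and cell division.

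The promoters of 5 members are shown because their genes carry the contrasts described below: the standard catalytic subunits Psmb5 and Psmb6, their immunoproteasome counterparts Psmb8 and Psmb9, and Psmc5, which had the largest E2 change in AF2 WT among the members. Each runs for 300 bases in the direction of transcription, 250 before and 50 after the RefSeq start (build GRCm38.p6). Capitals mark matches on either strand to TGANNNNGC, the core of the antioxidant response element bound by factors of the NRF family, and to TTCNNNGAA, the gamma-activated site bound by STAT proteins.
Psmb5 (chymotrypsin-like subunit, chr14:54617946-54618245, minus strand): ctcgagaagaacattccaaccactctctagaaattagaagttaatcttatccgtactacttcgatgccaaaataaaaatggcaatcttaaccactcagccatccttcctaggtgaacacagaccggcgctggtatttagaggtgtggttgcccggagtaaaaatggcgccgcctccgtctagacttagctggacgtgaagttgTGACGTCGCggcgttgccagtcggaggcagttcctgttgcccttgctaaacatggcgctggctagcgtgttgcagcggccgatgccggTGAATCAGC
Psmb8 (immunoproteasome counterpart of Psmb5, chr17:34197945-34198244, plus strand): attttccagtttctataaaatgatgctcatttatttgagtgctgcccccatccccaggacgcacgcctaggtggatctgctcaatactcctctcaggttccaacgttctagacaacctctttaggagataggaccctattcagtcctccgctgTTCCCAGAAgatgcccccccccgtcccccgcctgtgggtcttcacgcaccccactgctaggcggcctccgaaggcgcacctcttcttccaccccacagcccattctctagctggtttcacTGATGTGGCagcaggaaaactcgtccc
Psmb6 (caspase-like subunit, chr11:70525107-70525406, plus strand): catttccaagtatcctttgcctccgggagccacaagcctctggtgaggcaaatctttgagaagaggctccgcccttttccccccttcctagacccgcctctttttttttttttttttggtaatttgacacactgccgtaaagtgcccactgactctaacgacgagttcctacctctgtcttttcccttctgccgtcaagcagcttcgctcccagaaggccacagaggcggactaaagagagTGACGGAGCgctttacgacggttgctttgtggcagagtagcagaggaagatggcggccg
Psmb9 (immunoproteasome counterpart of Psmb6, chr17:34187281-34187580, minus strand): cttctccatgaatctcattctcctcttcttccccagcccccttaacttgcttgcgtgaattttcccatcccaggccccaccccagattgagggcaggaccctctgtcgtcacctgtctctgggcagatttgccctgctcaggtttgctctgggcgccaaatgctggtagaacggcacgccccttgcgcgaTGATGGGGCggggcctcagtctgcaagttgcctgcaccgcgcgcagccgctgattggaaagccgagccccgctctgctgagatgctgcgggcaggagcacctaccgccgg
Psmc5 (ATPase of the regulatory particle, chr11:106255935-106256234, plus strand): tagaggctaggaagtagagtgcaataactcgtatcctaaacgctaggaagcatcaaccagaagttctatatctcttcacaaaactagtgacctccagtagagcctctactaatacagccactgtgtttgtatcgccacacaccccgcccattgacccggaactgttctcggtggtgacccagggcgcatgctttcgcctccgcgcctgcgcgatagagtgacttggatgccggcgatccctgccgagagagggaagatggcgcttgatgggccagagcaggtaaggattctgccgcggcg
TGANNNNGC was found in Psmb5, Psmb6, Psmb8 and Psmb9 and not in the Psmc5 window, and TTCNNNGAA was found in Psmb8 alone of these.

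RefSeq held 43 such promoters for 40 of the 48 members. The 6 motifs searched, on both strands, were settled on after their shares had been seen. TGANNNNGC matched 25 of the 43 promoters (58.1%), against 41.3% of all 32851 promoters of that length. CCGGAAGT, a sequence bound by ETS family factors, matched 10 (23.3%, against 3.89%), among them Psma6, Psmc1, Psmc2, Psmd6, Psmd12 and Psmd13. The CCAAT box, CCAAT, matched 14 (32.6%, against 37.4%), TTCNNNGAA matched 3 (6.98%, against 8.3%), and the core of the interferon-stimulated response element, TTTC and again TTTC after 2 free bases, matched 5 (11.6%, against 3.44%). The palindromic estrogen response element, GGTCA and TGACC with 3 free bases between, matched 0 of 43, against 0.07% of all promoters. A match is a description and not a binding site.

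E2 raised all 31 tested subunits of the 26S proteasome in AF2 WT, MISS KO and MISS WT uteri, and none of them in AF2 KO uteri. The median log2 change over the 31 subunits was −0.02 in AF2 KO, 1.0 in AF2 WT, 1.22 in MISS KO and 1.28 in MISS WT. The mean level of the 31 subunits was 3.64, 3.50 and 3.49 on the AF2 KO E2 arrays, against 3.69, 3.72, 3.52 and 3.47 on the AF2 KO placebo arrays. It was 4.69, 4.76, 4.61 and 4.42 on the AF2 WT E2 arrays, against 3.66, 3.59, 3.54 and 3.50 on the AF2 WT placebo arrays. The AF2 KO groups overlapped, whereas every AF2 WT E2 array lay above every AF2 WT placebo array. In the MISS line the mean level was 4.91, 4.88, 4.75 and 4.72 on KO E2 arrays, against 3.71, 3.62, 3.51 and 3.42 on KO placebo arrays. It was 5.05, 5.0, 4.86 and 4.80 on MISS WT E2 arrays, against 3.60, 3.72, 3.60 and 3.44 on MISS WT placebo arrays. The E2 arrays of these 3 genotypes lay apart from all other arrays, with no overlap.

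Counted over the 43 tested members other than the immunoproteasome, a gene was called at an adjusted p under 0.05 in limma, with Benjamini-Hochberg adjustment over all tested genes. In AF2 KO uteri, 0 members were called higher and 0 lower, where 3.13% and 0.558% of all genes were called in those directions. At an unadjusted p under 0.05, limma gave 1 member higher and 3 lower there, and the 95% confidence interval of 42 of the 43 changes lay within 2-fold in either direction. In AF2 WT uteri, 39 members were called higher and 1 lower, against 27.6% and 30% of all genes. In MISS KO uteri, 42 were called higher and 0 lower, against 30.1% and 27.2% of all genes. In MISS WT uteri, 40 were called higher and 0 lower, against 35.1% and 27.1% of all genes. The share of members called higher was therefore above the background in these 3 comparisons.

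The median log2 change of the 43 members was −0.01 in AF2 KO, 0.91 in AF2 WT, 1.11 in MISS KO and 1.21 in MISS WT. Over all genes tested the medians were 0.04, −0.06, 0.03 and 0.16 in the same order. In AF2 WT the arrays of 34 members did not overlap, with E2 above placebo, against 24% of all genes. The corresponding counts were 40 in MISS KO, against 28% of all genes, and 40 in MISS WT, against 31.2%. Within single slides the median ranged over 0.82 to 1.08 in AF2 WT, 1.09 to 1.18 in MISS KO and 1.12 to 1.25 in MISS WT. Of 12 stromal marker genes, 11 fell in AF2 WT and 2 in AF2 KO, against 30% and 0.558% of all genes. In each of MISS KO and MISS WT 6 stromal genes fell, against 27.2% and 27.1% of all genes. The summed level of the stromal genes, in multiples of the 75th percentile, was 320.2 to 397.2 on AF2 WT E2 arrays and 569.3 to 686.3 on AF2 WT placebo arrays. In AF2 KO, where no member was called, it was 532.9 to 577.7 on E2 arrays and 661.7 to 819.6 on placebo arrays. Of 10 endothelial marker genes, 5 rose in each of AF2 WT, MISS KO and MISS WT, against 27.6%, 30.1% and 35.1% of all genes. In each of AF2 KO, MISS KO and MISS WT 1 endothelial gene fell. The summed level of the endothelial genes did not overlap in the 3 genotypes with a rise. It was 86.9 to 129.7 on AF2 WT E2 and 58.3 to 69.5 on AF2 WT placebo arrays, 105.6 to 153.4 on MISS KO E2 and 49.6 to 69.5 on MISS KO placebo arrays, and 93.9 to 112.2 on MISS WT E2 and 45.5 to 69.3 on MISS WT placebo arrays. In AF2 KO it was 43.1 to 56.1 on E2 and 51.3 to 58.7 on placebo arrays, with overlap. Of 10 smooth muscle genes, 0 were called higher and 2 lower in AF2 WT, 5 and 1 in MISS KO, and 6 and 1 in MISS WT. The summed level of the smooth muscle genes was 883.3 to 1165 on MISS KO E2 and 534.2 to 800.5 on MISS KO placebo arrays, with overlap in the other genotypes. Of 13 epithelial genes, 6 were called higher and 1 lower in AF2 WT, 6 and 0 in MISS KO, and 5 and 4 in MISS WT. The part of cell makeup in the proteasome changes was not tested. Of 13 further tested probes of members, 12 had the sign of the brightest probe of their gene in AF2 WT.

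**Figure D1:**
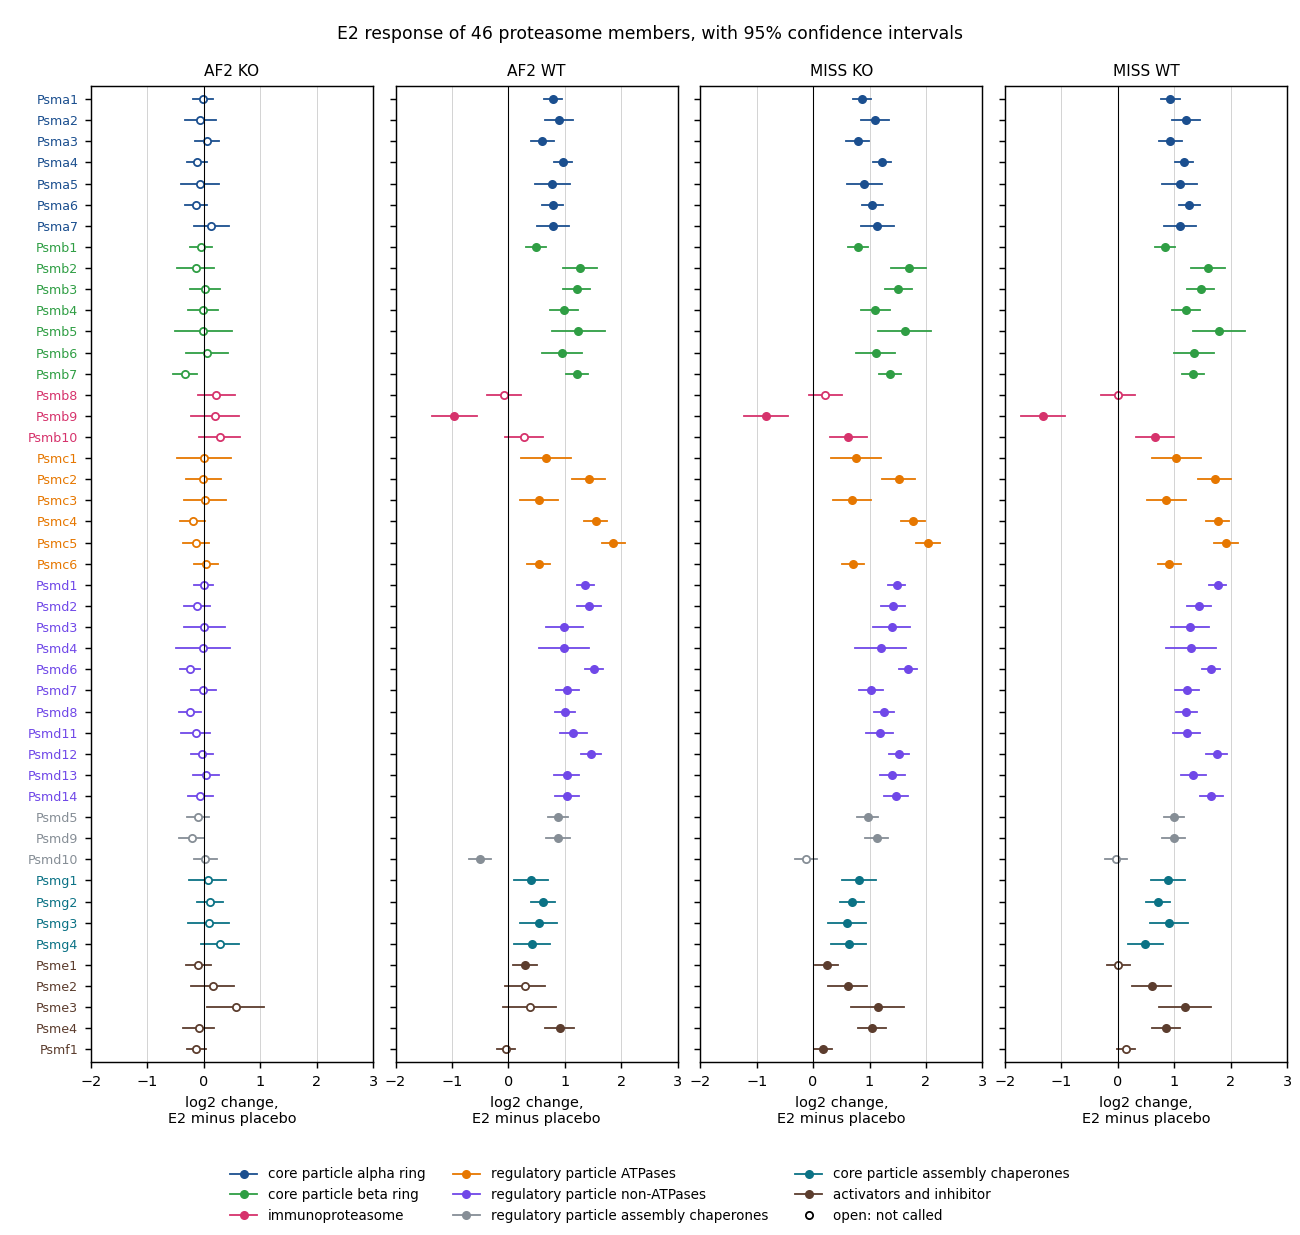
Log2 change, E2 minus placebo, of the 46 tested members (rows, coloured by role) in AF2 KO, AF2 WT, MISS KO and MISS WT uteri; points are limma estimates, bars are 95% confidence intervals, and open points were not called. In AF2 KO all points are open and lie around 0, and in the other panels the 31 subunits of the 26S proteasome lie to the right of 0.

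The α ring controls entry to the core. All 7 tested α subunits rose in AF2 WT, with a median log2 change of 0.79, and in the mutants and the other wild type the medians were −0.06 (AF2 KO, 0 called), 1.05 (MISS KO) and 1.1 (MISS WT). Psma4 changed most in AF2 WT. Its level was 3.18, 3.40, 3.10 and 3.18 on AF2 WT E2 arrays, against 2.32, 2.24, 2.15 and 2.28 on AF2 WT placebo arrays. On AF2 KO E2 arrays it was 2.24, 2.16 and 2.33, against 2.39, 2.41, 2.24 and 2.39 on AF2 KO placebo arrays. The AF2 WT groups were apart, while the AF2 KO groups overlapped. The log2 change of Psma4 was 0.96 ± 0.08 in AF2 WT (SE, adjusted p = 3.77e-11), 1.22 ± 0.08 in MISS KO and 1.17 ± 0.08 in MISS WT. Psma3 changed least, by 0.60 ± 0.10 in AF2 WT (adjusted p = 9.68e-06), and under quantile normalization its change was 0.14 (adjusted p = 0.0944).

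The β ring holds the proteolytic sites of Psmb6 (caspase-like), Psmb7 (trypsin-like) and Psmb5 (chymotrypsin-like), and Psmb1 to Psmb4 build the ring without cutting. All 7 rose in AF2 WT, with a median of 1.21, against −0.02 in AF2 KO, 1.37 in MISS KO and 1.35 in MISS WT. Psmb5 stood at 6.86, 6.74, 6.73 and 5.92 on AF2 WT E2 arrays, against 5.63, 5.34, 5.43 and 4.91 on AF2 WT placebo arrays. On AF2 KO E2 arrays Psmb5 stood at 5.71, 5.40 and 5.01, against 5.59, 5.63, 5.34 and 4.96 on AF2 KO placebo arrays. One AF2 WT E2 array was low for Psmb5 but still above all placebo arrays of its genotype. Psmb5 was 2.35-fold higher in AF2 WT (adjusted p = 3.7e-05), 3.08-fold in MISS KO and 3.47-fold in MISS WT, and its log2 change in AF2 KO was −0.01 ± 0.24 (adjusted p = 0.989).

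Psmb6 stood at 6.69, 6.56, 6.57 and 6.04 on AF2 WT E2 arrays, against 5.68, 5.56, 5.63 and 5.21 on AF2 WT placebo arrays. The groups did not overlap, and the change was 1.93-fold (adjusted p = 2.52e-05). Psmb7 stood at 3.30, 3.48, 3.21 and 3.20 on AF2 WT E2 arrays, against 2.22, 2.11, 1.94 and 2.06 on AF2 WT placebo arrays. In AF2 KO, Psmb7 was 2.0, 1.97 and 1.93 on E2 arrays, against 2.45, 2.38, 2.11 and 2.27 on placebo arrays. These AF2 KO groups were also apart, with E2 the lower one. Psmb7 was 2.32-fold higher in AF2 WT (adjusted p = 1.87e-11), and its change in AF2 KO, −0.34 ± 0.10 on the log2 scale, did not pass the test (adjusted p = 0.0613). It was called at −0.51 to −0.31 under 5 other settings, with adjusted p between 0.00712 and 0.0456, and at −0.40 without AF2 KO placebo replicate 3 (adjusted p = 0.0331). Psmd6 and Psmd8 had the same order of AF2 KO arrays, which makes 3 of the 43 members other than the immunoproteasome. Over all genes, 6.3% had non-overlapping AF2 KO groups in that direction, so this count was near the share of all genes. Among the structural subunits, Psmb2 changed most in AF2 WT, by 1.27 ± 0.15 on the log2 scale, and Psmb1 least, by 0.49 ± 0.09, with 0.11 for Psmb1 under quantile normalization (adjusted p = 0.244).

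The ATPases Psmc1 to Psmc6 form the ring that unfolds substrates and threads them into the core. All 6 rose in AF2 WT, with a median log2 change of 1.04, and the medians were −0.0007 in AF2 KO, 1.14 in MISS KO and 1.38 in MISS WT. Psmc5 stood at 4.13, 4.45, 4.32 and 4.31 on AF2 WT E2 arrays, against 2.45, 2.27, 2.47 and 2.59 on AF2 WT placebo arrays. In MISS KO it stood at 4.32, 4.36, 4.36 and 4.64 on E2 arrays, against 2.22, 2.40, 2.45 and 2.47 on placebo arrays. E2 arrays were far above placebo arrays in both, with little spread within a group. In AF2 KO, Psmc5 stood at 2.33, 2.53 and 2.52 on E2 arrays, against 2.52, 2.50, 2.79 and 2.59 on placebo arrays, and the groups overlapped. Psmc5 was 3.63-fold higher in AF2 WT (adjusted p = 2.23e-14), 4.1-fold in MISS KO (adjusted p = 2.98e-15) and 3.78-fold in MISS WT (adjusted p = 7.36e-15). Psmc6 changed least in AF2 WT, by 0.53 ± 0.10 on the log2 scale.

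The non-ATPase subunits recognise ubiquitin chains, remove them and hold the cap together. All 11 rose in AF2 WT, with a median of 1.05, against −0.03 in AF2 KO, 1.41 in MISS KO and 1.34 in MISS WT. Psmd6, a subunit of the lid, changed most in AF2 WT, by 1.51 ± 0.08 on the log2 scale, with levels of 3.69, 3.93, 3.76 and 3.83 on E2 arrays, against 2.30, 2.24, 2.12 and 2.50 on placebo arrays. Psmd1 and Psmd2, the large scaffold subunits, changed by 1.36 ± 0.07 and 1.43 ± 0.10. Psmd4, a ubiquitin receptor, changed least, by 0.99 ± 0.22. Psmd14 is the deubiquitinase that strips ubiquitin from substrates. It stood at 1.11, 1.19, 1.11 and 1.21 on AF2 WT E2 arrays, against 0.06, 0.07, −0.09 and 0.43 on AF2 WT placebo arrays, and at 1.87, 1.71, 1.83 and 2.04 on MISS WT E2 arrays, against −0.07, 0.28, 0.35 and 0.26 on MISS WT placebo arrays. Its log2 change was 1.04 ± 0.10 in AF2 WT (adjusted p = 1.65e-09). The placebo arrays of both lines overlapped for Psmd14, and the MISS WT E2 arrays lay above the AF2 WT E2 arrays.

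Assembly chaperones help the particles form and are not part of the finished proteasome. For the core particle, Psmg1 to Psmg4 were all called higher in AF2 WT, with a median log2 change of 0.48, against 0.10 in AF2 KO, 0.66 in MISS KO and 0.80 in MISS WT. Psmg2 changed most, by 0.61 ± 0.10, and Psmg1 least, by 0.39 ± 0.15, with −0.0038 for Psmg1 in the values of the authors' matrix. Psmg1 was not called without AF2 WT E2 replicate 1, 2 or 3 or AF2 WT placebo replicate 4, with 0.31 to 0.36. Of the regulatory particle chaperones, Psmd5 and Psmd9 rose in AF2 WT, by 0.87 ± 0.09 and 0.87 ± 0.10. Psmd10, known as gankyrin, went the other way. It stood at −0.13, 0.13, −0.09 and −0.24 on AF2 WT E2 arrays, against 0.43, 0.56, 0.35 and 0.33 on AF2 WT placebo arrays. In AF2 KO it stood at 0.54, 0.57 and 0.45 on E2 arrays, against 0.72, 0.45, 0.44 and 0.35 on placebo arrays. The AF2 WT E2 arrays were below every other array of the line for Psmd10. The log2 change was −0.50 ± 0.09 in AF2 WT (adjusted p = 4.05e-05), and it did not pass the test in AF2 KO (0.03 ± 0.10), MISS KO (−0.12 ± 0.09) or MISS WT (−0.03 ± 0.09). A second Psmd10 probe gave −0.21 in AF2 WT (adjusted p = 0.157).

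Activators open the core without ubiquitin recognition. Psme4, the large nuclear activator, stood at 0.22, 0.35, −0.10 and 0.50 on AF2 WT E2 arrays, against −0.59, −0.76, −0.78 and −0.52 on AF2 WT placebo arrays, with no overlap. Its log2 change was 0.91 ± 0.12 in AF2 WT (adjusted p = 4.4e-07), 1.04 ± 0.12 in MISS KO and 0.85 ± 0.12 in MISS WT. Psme3, a nuclear activator ring, rose by 1.15 ± 0.23 in MISS KO and 1.19 ± 0.23 in MISS WT, and its values in AF2 KO (0.57 ± 0.25) and AF2 WT (0.38 ± 0.23) did not pass. Psme1 and Psme2 form an activator that interferon γ induces. Psme1 changed by 0.29 ± 0.10 in AF2 WT (adjusted p = 0.0137) and by 0.24 ± 0.10 in MISS KO (adjusted p = 0.0426). Quantile normalization gave −0.19 and −0.23, so that its direction depended on the scaling. The −0.23 in MISS KO was called in limma (adjusted p = 0.022), as was −0.58 in MISS WT under that normalization (adjusted p = 1.58e-06). The MISS KO value of 0.24 lost its call without MISS KO E2 replicate 1, 2 or 4 or MISS KO placebo replicate 2, 3 or 4, at 0.20 to 0.24. Psme2 was called in MISS KO (0.61 ± 0.17) and MISS WT (0.60 ± 0.17), while quantile normalization gave 0.13 in MISS KO, not called, and −0.01 in MISS WT. The mean of its 3 tested probes gave 0.20 in MISS WT, not called in limma (adjusted p = 0.159). That mean also gave −0.53 for AF2 KO minus AF2 WT under placebo (adjusted p = 0.00457). For the difference of the AF2 responses it gave 0.65 (adjusted p = 0.00315), a reversed sign. Psmf1, an inhibitor of the core, was called in MISS KO, with 0.18 ± 0.08, and lost that call without MISS KO E2 replicate 2, 3 or 4 or MISS KO placebo replicate 1, 2 or 3, at 0.15 to 0.19.

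The immunoproteasome subunits did not move as one. Psmb9 fell in AF2 WT, MISS KO and MISS WT, Psmb10 rose in MISS KO and MISS WT, and Psmb8 was called in no genotype. Psmb9 stood at 1.59, 1.33, 1.32 and 1.32 on AF2 WT E2 arrays, against 2.43, 2.51, 2.24 and 2.23 on AF2 WT placebo arrays. In MISS KO it stood at 1.71, 2.07, 1.65 and 1.57 on E2 arrays, against 2.81, 2.55, 2.62 and 2.40 on placebo arrays. In MISS WT it stood at 1.91, 1.98, 1.61 and 2.01 on E2 arrays, against 3.30, 3.87, 3.11 and 2.55 on placebo arrays. In each of these pairs all E2 arrays lay below all placebo arrays, and the MISS WT placebo arrays were the most spread. In AF2 KO, Psmb9 stood at 2.03, 2.65 and 1.93 on E2 arrays, against 2.03, 2.23, 1.85 and 1.89 on placebo arrays, with overlap.

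Psmb9 was 0.515 times its placebo level in AF2 WT (log2 change −0.96 ± 0.19, adjusted p = 9.92e-05), 0.558 times in MISS KO (adjusted p = 0.000416) and 0.397 times in MISS WT (adjusted p = 8.66e-07). The direction held under all 5 scalings in these 3 genotypes, and within single slides the change was −1.18 to −0.84 in AF2 WT, −1.10 to −0.48 in MISS KO and −1.90 to −0.54 in MISS WT. Its AF2 KO change of 0.20 ± 0.21 did not pass (adjusted p = 0.7). A second Psmb9 probe gave −1.99 in AF2 WT and −1.71 in MISS WT.

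Psmb8 stood at 2.32, 2.48, 2.23 and 2.21 on AF2 WT E2 arrays, against 2.46, 2.46, 2.27 and 2.39 on AF2 WT placebo arrays, and the groups overlapped. Its log2 change was −0.09 ± 0.15 in AF2 WT (adjusted p = 0.639) and 0.00 ± 0.15 in MISS WT (adjusted p = 0.993), but quantile normalization gave −0.37 (adjusted p = 0.0235) and −0.41 (adjusted p = 0.0122). Psmb10 stood at 5.70, 5.59, 5.45 and 5.53 on MISS WT E2 arrays, against 4.96, 5.39, 4.87 and 4.40 on MISS WT placebo arrays. The E2 arrays were all above the placebo arrays. Psmb10 changed by 0.63 ± 0.16 in MISS KO (adjusted p = 0.00172) and 0.66 ± 0.16 in MISS WT (adjusted p = 0.000947), with 0.14 and 0.05 under quantile normalization, neither of them called. In AF2 WT its change was 0.27 ± 0.16 (adjusted p = 0.165), which was called with the slide as a block (adjusted p = 0.0383) and under median scaling (0.49, adjusted p = 0.0128), and had the other sign, −0.21, under quantile normalization.

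**Figure D2:**
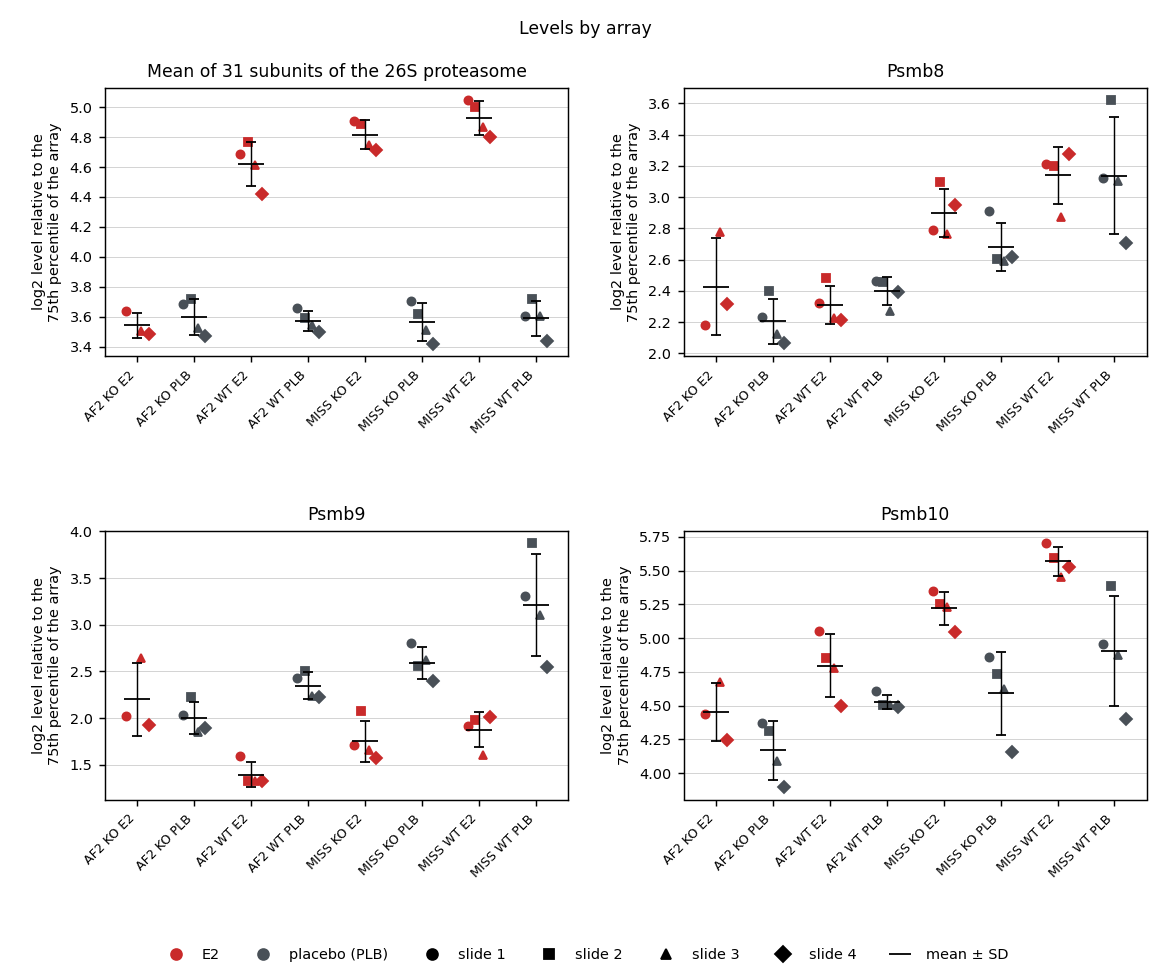
Log2 level relative to the 75th percentile of the array (y axis) in the 8 groups (x axis), for the mean of 31 subunits of the 26S proteasome and for Psmb8, Psmb9 and Psmb10; each point is an array, its shape marks the slide, E2 is red and placebo grey, and the bar is the mean ± SD. For the 26S mean the E2 arrays of AF2 WT, MISS KO and MISS WT stand above all other arrays, and for Psmb9 they stand below the placebo arrays of their genotype.

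**Figure D3:**
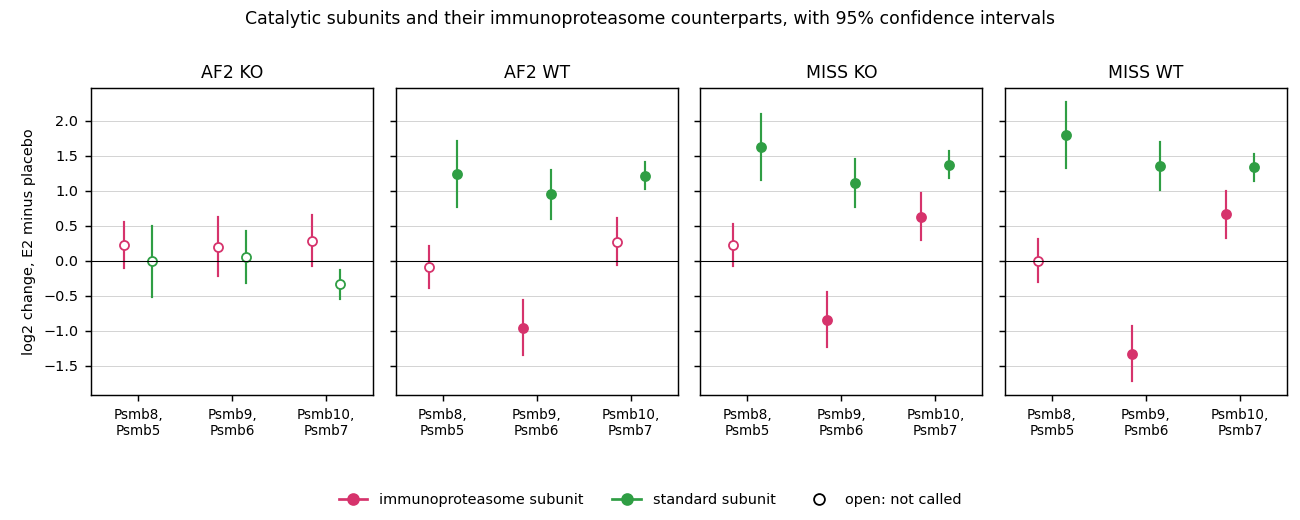
Log2 change, E2 minus placebo, of each standard catalytic subunit and its immunoproteasome counterpart in the 4 genotypes; points are limma estimates, bars are 95% confidence intervals, and open points were not called. Psmb5, Psmb6 and Psmb7 lie above 0 in AF2 WT, MISS KO and MISS WT, where Psmb9 lies below 0.

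Psmb9 and Psmb8 flank Tap1 on chromosome 17, in the order Psmb9, Tap1, Psmb8 and Tap2, and Tap1, a peptide transporter of the MHC class I pathway, lies 225 bases from Psmb9 in RefSeq. Tap1 averaged −1.95 ± 0.19 in AF2 WT E2 and −1.15 ± 0.12 in AF2 WT placebo uteri (SD, n = 4 each), a change of −0.79 ± 0.19 that was called. It was also called in MISS WT, with −0.81 ± 0.19, and not in MISS KO, with −0.35 ± 0.19. Of 13 genes of MHC class I presentation, 4 were called higher and 2 lower in AF2 WT, where 27.6% and 30% of all genes were. In MISS KO 5 and 0 were, against 30.1% and 27.2% of all genes, and in MISS WT 5 and 2, against 35.1% and 27.1%. Quantile normalization turned these counts into 2 and 5, 3 and 4, and 5 and 7. The shares of all genes called under that scaling are not given here, so these counts have no background beside them. The largest called change among the 13 genes in AF2 WT was that of Calr, a chaperone of the endoplasmic reticulum, with 1.12 ± 0.14. B2m, the light chain of class I molecules, fell in MISS WT by 1.06 on the log2 scale and had −0.47 in AF2 WT and −0.36 in MISS KO.

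Of 16 genes that interferon γ induces, 2 were called higher and 5 lower in AF2 WT, 2 and 4 in MISS KO, and 3 and 9 in MISS WT, or 1 and 6, 2 and 7, and 2 and 12 under quantile normalization. Of all genes, 30% were called lower in AF2 WT, 27.2% in MISS KO and 27.1% in MISS WT, so that the lower counts in AF2 WT and MISS KO were near the share of all genes. Gbp3 and Gbp4, guanylate-binding proteins, changed by −1.57 ± 0.25 and −1.01 ± 0.28 in AF2 WT and by −2.23 ± 0.25 and −1.96 ± 0.28 in MISS WT. Socs1, a feedback inhibitor of cytokine signalling, went up by 4.40 ± 0.11 in AF2 WT, and Irf1, a transcription factor of the interferon response, had 0.10 and was not called. Ciita, the switch of MHC class II genes, was called in all 4 genotypes: its log2 change was 2.14 in AF2 KO, −1.47 in AF2 WT, 1.23 in MISS KO and 1.56 in MISS WT. The AF2 WT value of Ciita rests on 3 of the 4 E2 arrays, since a spot marked as an outlier left the other without a value.

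Some markers of immune cells also changed under E2. The summed level of 14 lymphocyte genes, in multiples of the 75th percentile of the array, ranged over 8.61 to 9.51 in MISS WT E2 and 10.27 to 24.87 in MISS WT placebo arrays, and over 7.53 to 8.11 in AF2 WT E2 and 7.30 to 8.85 in AF2 WT placebo arrays. In MISS WT, 0 of the 14 were called higher and 8 lower, where 27.1% of all genes were called lower. In MISS KO the counts were 0 and 5, with 27.2% of all genes lower, and in AF2 WT 1 and 2, with 30% lower. The lower count was thus near the share of all genes in MISS KO and not above it in AF2 WT. The summed level of 9 macrophage genes was 43.1 to 55.3 in AF2 WT E2 and 66.4 to 82.9 in AF2 WT placebo arrays. There, 2 of the 9 were called higher and 5 lower, against 27.6% and 30% of all genes. In AF2 KO the macrophage sum was higher under E2, at 72.9 to 94.7 in E2 and 54.1 to 65.9 in placebo arrays. The median log2 change of the 9 genes in AF2 KO was −0.29, so the sum and the median had opposite directions. There, 1 of the 9 was called higher and 0 lower, against 3.13% and 0.558% of all genes. In MISS KO and MISS WT the macrophage sums of E2 and placebo arrays overlapped. Of 14 lymphocyte genes 11 were well above background on all arrays, and of 10 macrophage genes 9. The part of these cells in the change of Psmb9 was not tested.

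The E2 response of most members was lower in AF2 KO than in AF2 WT. In the test of the difference, KO minus WT of the E2 responses, 34 of the 43 members were called lower and 1 higher in the AF2 line, against 23% and 29% of all genes. The median difference was −0.98 over these members and 0.18 over all genes. Of the 31 subunits of the 26S proteasome, 29 were called lower, with a median of −1.05; the exceptions were the ATPases Psmc1 (−0.66 ± 0.31) and Psmc3 (−0.52 ± 0.24). Psmc5 had the largest difference, −2.0 ± 0.15 (adjusted p = 3.94e-11), and the standard catalytic subunits had −1.25 ± 0.33 (Psmb5), −0.90 ± 0.25 (Psmb6) and −1.55 ± 0.14 (Psmb7).

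The member called higher in that difference was Psmd10, with 0.53 ± 0.14 (adjusted p = 0.00202), and median scaling gave 0.14 with no call. Among the immunoproteasome subunits Psmb9 had 1.16 ± 0.28 (adjusted p = 0.00112), while Psmb8 (0.31 ± 0.21) and Psmb10 (0.01 ± 0.24) did not pass. Under placebo, 0 members differed between AF2 KO and AF2 WT after adjustment in limma, where 3.38% of all genes were higher and 5.68% lower. At an unadjusted p under 0.05, 4 members were higher. The 95% intervals of 43 of 43 members lay within 2-fold there. Median scaling called 10 members in that comparison and 6 in the AF2 KO response.

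In the MISS line, 0 of 43 members were called in the KO minus WT difference of the responses, where 0.245% of all genes were higher and 0.658% lower. At an unadjusted p under 0.05 limma gave 1, Psmd1, which was lower. The median was −0.04 over the members and −0.07 over all genes, and the 95% interval of all 43 lay within 2-fold and of 33 within 1.5-fold. With the slide as a block, 2 members were called lower. Under placebo, 0 members differed between MISS KO and MISS WT, where 0.42% of all genes were higher and 0.472% lower, and 3 were lower at an unadjusted p under 0.05. Psmb9 had −0.62 ± 0.19 (adjusted p = 0.139) in this placebo comparison. It was called with the slide as a block (adjusted p = 0.0421), in the authors' matrix (−0.67, adjusted p = 0.0379) and without MISS WT placebo replicate 4 (−0.84, adjusted p = 0.00824). Psmb8 had −0.46 ± 0.15 (adjusted p = 0.155), and was called in the authors' matrix (−0.53, adjusted p = 0.0445) and without that array (−0.60, adjusted p = 0.0205).

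**Figure D4:**
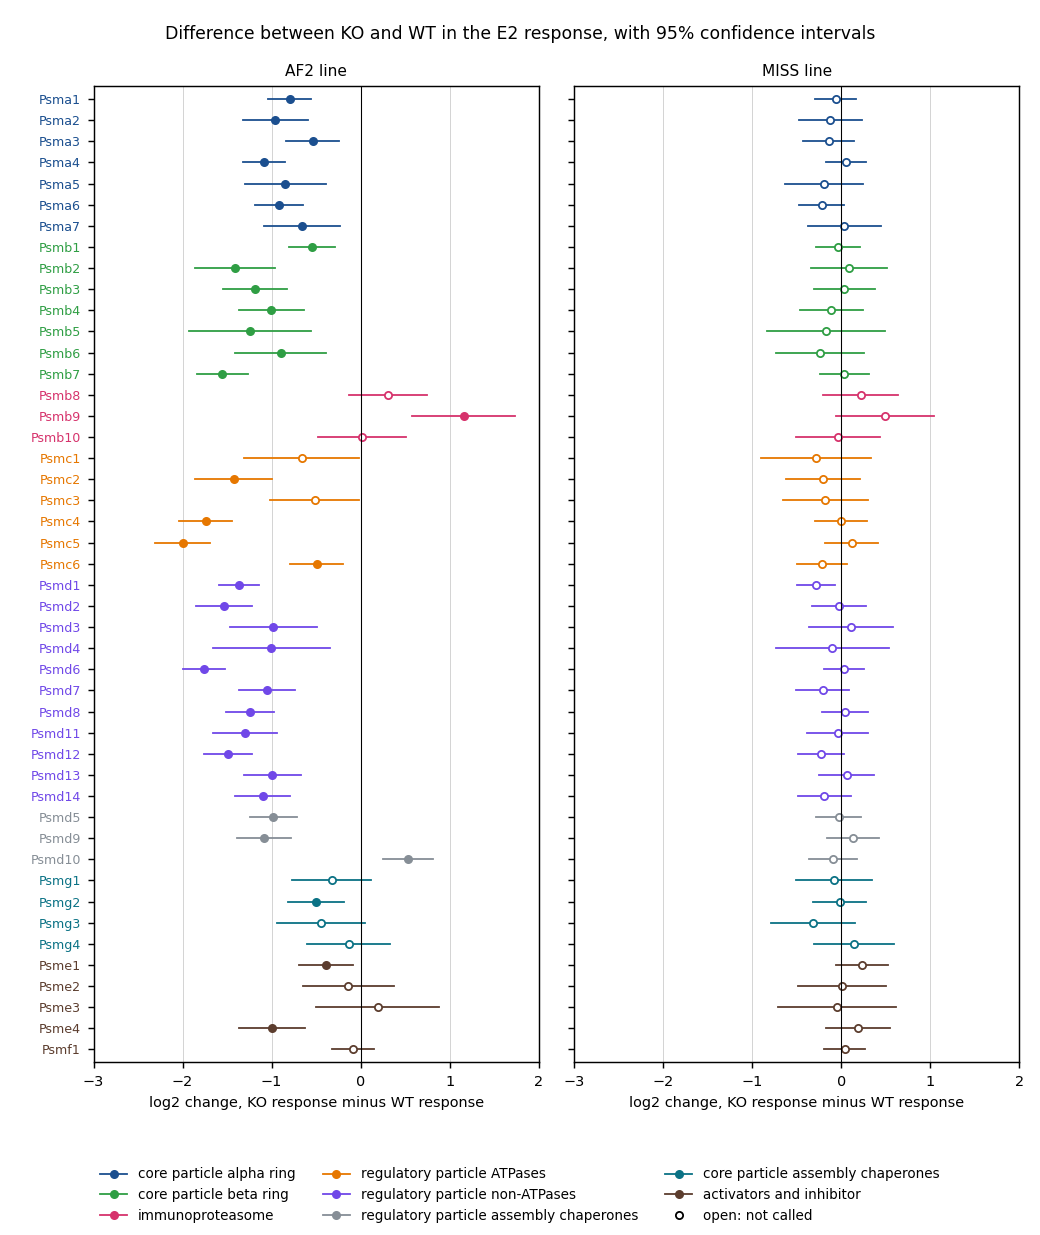
Difference of the E2 responses on the log2 scale, KO minus WT, of the 46 members in the AF2 line and the MISS line; points are limma estimates, bars are 95% confidence intervals, and open points were not called. In the AF2 line 29 of the 31 subunits of the 26S proteasome are filled and left of 0 and Psmb9 and Psmd10 are right of it, and in the MISS line all points are open.

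The E2 changes of the wild types had a Pearson correlation of 0.91 across the 43 members and come from separate arrays. The correlation is across genes, which are not independent replicates. In the MISS WT minus AF2 WT difference of the responses, 4 members were called higher and 0 lower, against 6.38% and 3.1% of all genes, and the median was 0.30 over the members and 0.11 over all genes. That median of the members was 0.19 without AF2 WT E2 replicate 4 and ranged over 0.10 to 0.39 within single slides. The 4 called members were Psma6 (0.49 ± 0.12), Psmd1 (0.40 ± 0.10), Psmd14 (0.62 ± 0.14, adjusted p = 0.00685) and Psmd10 (0.47 ± 0.13, adjusted p = 0.0234). The call of Psmd10 was lost without AF2 WT E2 replicate 4, AF2 WT placebo replicate 2 or MISS WT placebo replicate 4, at 0.40 to 0.42. The count was 22 with the slide as a block and 0 under median scaling.

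Under placebo, MISS WT and AF2 WT differed in 2 of the 43 members, with 1 higher and 1 lower, against 3.04% and 8.62% of all genes. Psme1 was higher in MISS WT, by 0.41 ± 0.10 (adjusted p = 0.00715), and Psme3 lower, with −0.70 ± 0.23 (adjusted p = 0.0452). The Psme3 arrays overlapped, at 0.19 to 1.22 in MISS WT placebo and 0.91 to 1.63 in AF2 WT placebo. In 5 of 8 runs with an array left out, the count of 2 members became 1. Psmb8 and Psmb9 were also higher in MISS WT placebo uteri, by 0.74 ± 0.15 (adjusted p = 0.00111) and 0.86 ± 0.19 (adjusted p = 0.0031), and Psmb10 had 0.38 ± 0.16 (adjusted p = 0.148), which was called with the slide as a block (adjusted p = 0.0185), under median scaling (0.51, adjusted p = 0.036), under quantile normalization (0.41, adjusted p = 0.0372) and without MISS WT placebo replicate 4 (0.55, adjusted p = 0.0201). In that comparison 6 of the 14 lymphocyte genes were called higher and 0 lower. Within the 4 slides the Psmb9 difference ranged from 0.32 to 1.37.

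Of 17 tested genes for proteasome receptors, shuttles and assembly factors, 14 were called higher and 0 lower in AF2 WT (median 0.91). The counts were 15 and 0 in MISS KO (median 0.84), 15 and 0 in MISS WT (median 1.05), and 0 in AF2 KO. Of all genes, 3.13% were called higher and 0.558% lower in AF2 KO, so the 0 there was near the share of all genes. The share of all genes called higher was 27.6% in AF2 WT, 30.1% in MISS KO and 35.1% in MISS WT. Quantile normalization gave 11 and 1, 12 and 1, and 13 and 1 in those genotypes, without a share of all genes under that scaling. Adrm1, a ubiquitin receptor of the cap, averaged 4.35 ± 0.14 in AF2 WT E2 and 2.20 ± 0.24 in AF2 WT placebo uteri (SD, n = 4 each), a log2 change of 2.15 ± 0.12. Ubqln1 and Ubqln4, shuttles of ubiquitinated proteins, changed by 2.01 ± 0.09 and 1.52 ± 0.11. Pomp, the maturation factor of the core, changed by 0.64 ± 0.15 and lost that call under 2 of 5 scalings.

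Nfe2l1 is a transcription factor that raises proteasome genes when proteasome activity is short, and the protease Ddi2 activates it. Nfe2l1 averaged 0.17 ± 0.17 in AF2 WT E2 and −1.24 ± 0.14 in AF2 WT placebo uteri (SD, n = 4 each). Its log2 change was 1.40 ± 0.10 in AF2 WT, 1.51 ± 0.10 in MISS KO and 1.60 ± 0.10 in MISS WT, and it was called under all 5 scalings. Ddi2 changed by 1.53 ± 0.08 in AF2 WT, and the relative Nfe2l3 by −2.17 ± 0.24. Nfe2l2, which answers oxidative stress, had 0.38 ± 0.06 in AF2 WT, and −0.03 at the lowest of 5 scalings. Over the 14 tested genes around these factors, 8 were called higher and 3 lower in AF2 WT and in MISS KO, 9 and 3 in MISS WT, and 0 in AF2 KO. The share of all genes called higher was 27.6% in AF2 WT, 30.1% in MISS KO and 35.1% in MISS WT. The share called lower was 30%, 27.2% and 27.1% in the same order. In AF2 KO the shares were 3.13% higher and 0.558% lower, so the count of 0 there was near the share of all genes.

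Of 19 tested genes of p97 and endoplasmic-reticulum degradation, which pull proteins out for the proteasome, 16 were called higher and 1 lower in AF2 WT. The counts were 16 and 2 in MISS KO, 17 and 2 in MISS WT, and 0 in AF2 KO. Of all genes, 3.13% were called higher and 0.558% lower in AF2 KO, so the 0 of 19 there was near the share of all genes. The share of all genes called higher was 27.6% in AF2 WT, 30.1% in MISS KO and 35.1% in MISS WT. Vcp, the p97 ATPase, changed by 0.78 ± 0.08 in AF2 WT, Plaa by 1.57 ± 0.25, and Derl3 by −1.18 ± 0.27. Of 20 genes of ubiquitin and its transfer, 14 were called higher and 0 lower in AF2 WT, 14 and 1 in MISS KO, 14 and 0 in MISS WT, and 0 and 1 in AF2 KO. Among them Ubb, a polyubiquitin gene, changed by 0.47 ± 0.08 in AF2 WT. The AF2 WT median was 0.51 for the genes around Nfe2l1, 0.78 for p97 and degradation, 0.78 for ubiquitin, 0.13 for MHC class I and −0.32 for interferon γ genes, against −0.06 for all genes. All these lists were drawn up with earlier results of these data known.

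The subunits of the 26S proteasome moved together across the 31 arrays, with a median pairwise correlation of 0.955 over all arrays and 0.536 within groups. The immunoproteasome subunits had 0.482 over all arrays and 0.802 within groups. These describe arrays that share a slide and a scaling. Among the 10 genes whose levels followed the mean of 20 core particle and ATPase members most closely over 31 arrays, r was highest for Mrps28 (0.996) and Nif3l1 (0.995). Atp5b (0.994), Vcp (0.994), Uqcrq, Magoh and Klhdc4 were also among the 10. The others were entries that the array lists by a transcript, predicted-gene or clone identifier.

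**Figure D5:**
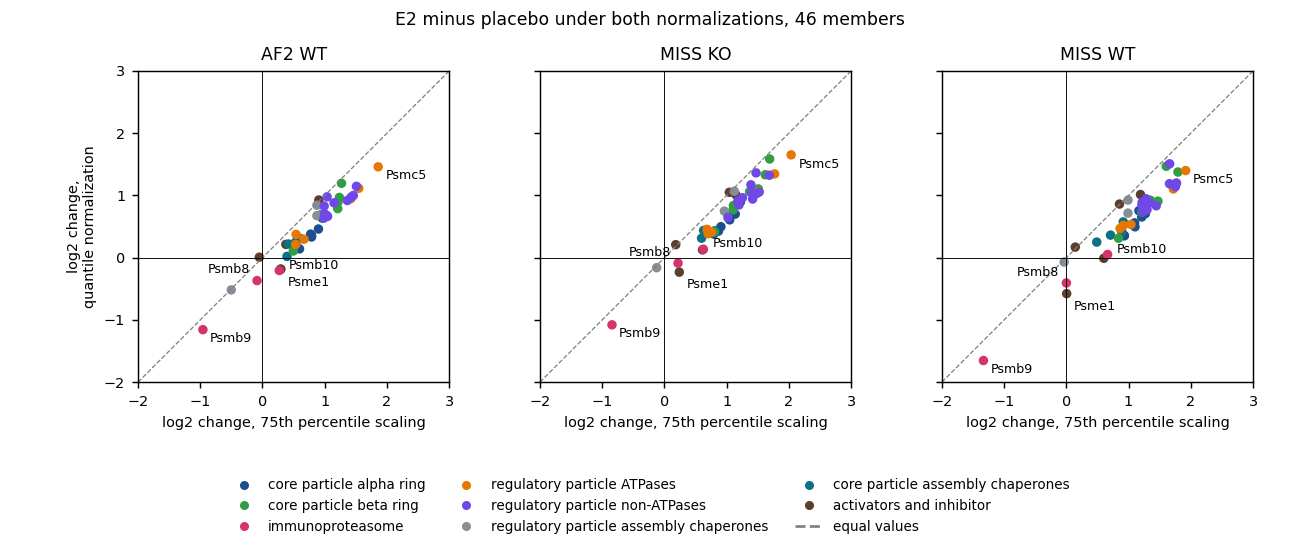
Log2 change, E2 minus placebo, of the 46 members with scaling to the 75th percentile (x axis) and with quantile normalization (y axis), in the genotypes shown; colours mark roles and the dashed line marks equal values. In AF2 WT the median of the 31 subunits of the 26S proteasome was 1.0 on the x axis and 0.70 on the y axis, and all 31 were above 0 on both.

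The size of the response depended on the scaling. In AF2 WT all 31 subunits of the 26S proteasome had a positive change under every scaling run, 28 of 31 being called under quantile normalization and in the authors' matrix, with medians of 0.70 in each. The subunits not called under quantile normalization were Psma3, Psmb1 and Psmc1. In MISS KO and MISS WT 31 of 31 were called under both, with medians of 0.91 and 0.84 under quantile normalization. The AF2 KO minus AF2 WT difference kept 26 of 31 called. The shares of all genes called under these scalings are not given here.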

How the data were processed

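Per the labels, total RNA of whole uterus was hybridised to Agilent one-colour (Cy3) arrays, and the submitters' processing notes name Agilent Feature Extraction 10.10.1.1 and limma, with no step or version for limma. Per the file headers, the processed signal deposited for each spot is an intensity after background subtraction, not normalized between arrays. The deposited files also give 0/1 marks for outlier spots, saturation and signal well above background. The series matrix deposited by the authors holds log2 values of 43753 probes, with 83 empty cells. Its column medians of 7.558 to 7.564 show centring between arrays, its exact method is not given in the sources used here, and all 31 columns correlated best with their own array (lowest r = 0.979).

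Each array held 62976 spots, 59305 of them not controls, for 55681 probes. Outlier spots were set missing, the spots of a probe were averaged as log2 values, and the 75th percentile of the array was subtracted. Testing took in 40337 probes that rose well above background throughout 1 or more of the groups. The brightest of these stood for its gene, which left 26901 genes with 55 missing values. Probe names are those of the array annotation. A model was fitted in R 4.3.3 with limma 3.58.1, using lmFit and eBayes, to 8 group means over all 31 arrays, with 23 residual degrees of freedom, for 10 contrasts, with Benjamini-Hochberg adjustment over all genes of a contrast and calls at 0.05. A change is a log2 fold change ± standard error. On simulated data for the AF2 WT comparison over 26901 genes, the model recovered 72 of 100 changes of 1 and 27 of 100 changes of 0.5 on the log2 scale, with 5 false calls. Only these genes were changed in the simulation, whereas 7433 genes were called higher and 8071 lower in the AF2 WT data. The adjustment depends on how many genes change, so these rates do not give the recovery in the data. Groups came from the sample labels; the number of arrays limits the precision. Alternatives were the authors' matrix, normexp background, median scaling, quantile normalization, other filters on dim probes, the mean of all probes, a trended and robust prior, 1 line at a time, the slide as a block and each array left out. The 4 slides each held at most 1 array of a group, and AF2 KO E2 had none on slide 2.

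The members and lists were chosen with earlier results of these data known. Named members are, per role, those with the largest, smallest and opposite E2 change in AF2 WT, and the catalytic and immunoproteasome subunits, Psme1 and Psme2. From other lists at most 4 genes with the largest called change in AF2 WT are named, with a few fixed genes; Psmd1, Psmd2, Psmd5, Psmd14, Psme3 and genes making up short counts were chosen after their values were seen. Promoter windows come from RefSeq (GRCm38.p6), and the array annotation uses another build, so probe positions are not set beside them.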

Additional observations from a re-analysis of the deposited data

Results flagged for a closer look

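In 11 of 154 groups of 4 arrays (7.14%), the highest or lowest array of a named member stood far from the other 3 by Dixon's test; chance flags about 1 in 20 groups. The arrays that stood high were Psmb10 at 4.61 in AF2 WT placebo replicate 1, Psmb8 at 2.91 in MISS KO placebo replicate 1, Psmb9 at 1.59 in AF2 WT E2 replicate 1, Psmc5 at 4.64 in MISS KO E2 replicate 4, Psmd9 at 1.02 in AF2 WT E2 replicate 2, and Psmg2 at 2.52 in AF2 WT placebo replicate 3. Those that stood low were Psma4 at 2.24 in AF2 KO placebo replicate 3, Psmb5 at 5.92 and Psmg1 at 3.17 in AF2 WT E2 replicate 4, Psmg1 at 2.93 in AF2 WT placebo replicate 4, and Psmg2 at 1.98 in MISS WT placebo replicate 2. AF2 WT E2 replicate 4 and AF2 WT placebo replicate 4 were both on slide 4. For Psmb5 the array on slide 4 was the lowest of its group in every group. The part of the slide in these flags was not tested.

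The E2 response differed between AF2 KO and AF2 WT, by limma's test of the difference, for 35 of the 43 members other than the immunoproteasome. Of these, 34 were lower and 1 higher, against 23% and 29% of all genes. On the log2 scale, KO minus WT, the named members had −0.54 (Psma3), −1.08 (Psma4), −0.55 (Psmb1), −1.41 (Psmb2), −1.25 (Psmb5), −0.90 (Psmb6) and −1.55 (Psmb7). The cap subunits had −2.0 (Psmc5), −0.49 (Psmc6), −1.0 (Psmd4) and −1.76 (Psmd6). Chaperones and activators had −1.09 (Psmd9), −0.50 (Psmg2), −0.39 (Psme1) and −1.0 (Psme4). The difference was positive for Psmb9 (1.16) and Psmd10 (0.53). The value of Psme1 lost its call without AF2 KO E2 replicate 1 or 3, AF2 KO placebo replicate 2 or AF2 WT placebo replicate 3, at −0.39 to −0.33. Between the wild types, 4 of the 43 members had a different response, MISS WT minus AF2 WT, among them Psmd10 with 0.47. Of all genes, 6.38% were called higher and 3.1% lower in that test, so the count was near the share of all genes. It was 0 under median scaling, whereas with the slide as a block 18 of the 31 subunits of the 26S proteasome were called higher.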

How the results depend on the processing

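The labels give no replicate numbers that pair samples. Arrays share slides, and the slide was left out of the main model and run as a block among the alternatives. Scan time was not run as a block of its own because it coincides with the slide. Each array left out in turn gave 0 to 1 called members in AF2 KO, 39 to 40 in AF2 WT, 40 to 41 in MISS KO and 40 to 41 in MISS WT, 34 to 38 for AF2 KO minus AF2 WT of the responses, 0 to 0 for MISS KO minus MISS WT, 3 to 5 for MISS WT minus AF2 WT of the responses and 1 to 2 under placebo, 0 to 1 for AF2 KO minus AF2 WT under placebo and 0 to 0 in the MISS line. The counts in AF2 WT, MISS KO, MISS WT and the AF2 difference stayed within 1.5 times under every setting run. The AF2 KO count of 0 became 1 with normexp, the authors' matrix or quantile normalization, 6 with median scaling and 3 with the slide as a block. The MISS difference of responses became 2 with the slide as a block. AF2 KO minus AF2 WT under placebo became 1 with the mean of all tested probes, no filter or quantile normalization, 10 with median scaling and 4 with the slide as a block. MISS WT minus AF2 WT of the responses became 0 with median scaling and 22 with the slide as a block, and under placebo its 2 became 6 with median scaling. Median scaling moved the median of all genes to −0.13 in AF2 KO, 0.15 in AF2 WT, 0.16 in MISS KO and 0.21 in MISS WT.

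Signs reversed in the authors' matrix and under quantile normalization for Psmb8 in MISS WT (−0.43 and −0.41), Psme1 in AF2 WT (−0.19 and −0.19), MISS KO (−0.25 and −0.23), MISS WT (−0.60 and −0.58) and the AF2 difference (0.12 and 0.10), and Psme2 in MISS WT (−0.023 and −0.0092). Psmg1 in AF2 WT reversed in the authors' matrix (−0.0038), and Psme2 in the AF2 difference with the mean of all probes (0.65). Of the other values of named members, 4081 kept their direction and side of the threshold, 195 that were not called either way had the other sign (at most 0.38 in size), 59 passed it and 51 lost it. The cause was not tested.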
